A study of Mus musculus with 29 samples.

Results

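Aged cardiac fibroblasts cultured for 48 h on StiffA, the substrate built to match the aged heart, were compared with fibroblasts of aged mice that had just been isolated. The comparison rests on 6 of the 29 RNA-seq libraries of the study, 3 of aged cells on StiffA and 3 of fresh aged cells, chosen by their sample titles. StiffA is a DECIPHER scaffold, a stiff hydrogel that carries extracellular matrix (ECM) of aged mouse heart. SoftY, StiffY and SoftA are the scaffolds with a soft gel or with ECM of young heart, and served here, with fresh young cells and young cells on StiffA, for contrast. The cells are primary fibroblasts of mouse heart, and the labels used here give no strain, sex or age in months. Each group has 3 libraries that the labels number as biological replicates without saying whether they come from separate animals. The p-values therefore cover only how much these libraries vary, which may be technical. Fresh and cultured cells differ in time after isolation, in culture itself and in the substrate, and these cannot be told apart in this comparison.

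Cardiac fibroblasts build and renew the collagen network of the heart. When they are activated, as after injury or on a stiff surface, they can become myofibroblasts, which assemble smooth muscle type actin fibres, pull on their surroundings through focal adhesions and secrete fibrillar collagen together with the enzymes that fold and crosslink it. Isolation from the heart digests the tissue with enzymes, and dissociation is known to induce immediate early and inflammatory genes in many tissues. Fibroblasts can also respond to cytokines and interferon, and they can release proteases that cut the same matrix they build.

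The 6 libraries held 2143452 to 2798296 counts, so that a gene at 10 CPM (the count scaled to a common library size) rested on 21.1 to 27.9 counts. CPM here uses library totals after TMM scaling, and no level is corrected for gene length, so that levels are compared only within a gene. Fibroblast markers were present in all 6 libraries. Pdgfra, the receptor that marks heart fibroblasts, measured 1479, 1679 and 1391 CPM in the fresh libraries and 669.7, 635 and 712 CPM on StiffA, and the collagen receptor gene Ddr2 measured 274, 259.8 and 294.5 CPM fresh and 309, 283 and 317 CPM on StiffA. The summed level of 16 myeloid markers was 473.7 to 522.2 CPM in fresh cells and 27.12 to 38.05 CPM on StiffA, where 6 of the 16, among them Ptprc and C1qa, were at 0. All 11 myeloid markers that entered the test fell. Endothelial markers summed to 664 to 697.7 CPM fresh and 661.7 to 731.1 CPM on StiffA. Most of that sum was Eng, the 1 member that rose, with 425.2, 420.9 and 455.2 CPM fresh and 522.5, 530.9 and 504.9 CPM on StiffA, while 5 of the 12 tested fell. Cardiomyocyte markers summed to 9.158 to 13.39 CPM fresh and 19.89 to 24.16 CPM on StiffA. Myl4 and Tnnt2, the 2 that entered the test, rose, while Ttn had 12 counts fresh and 2 on StiffA, Tnnc1 14 and 5 and Myh6 5 and 0. Pericyte and smooth muscle markers summed to 206.3 to 239.8 and 570.3 to 611.1 CPM, and epicardial and mesothelial markers to 242.2 to 248.5 and 135.5 to 175.7 CPM. Most of the latter sum was Aldh1a2, at 237.3, 238.9 and 232.7 CPM fresh and 129.1, 121.3 and 106.6 CPM on StiffA. On the same list Upk3b had 1 count fresh and 266 on StiffA, and Krt8 and Muc16 were at 0 in both groups. In bulk libraries fewer cells of a type and less RNA per cell cannot be told apart. The strand setting of the counting is not given in the sources used here, so that Mfap4, Vcl, Kif20a, Irf7, Fosl1, Cyp51, Loxl3, Zdhhc2, Slc16a3, Mef2a, Shmt2, Tgfb3, Gata6, Banf1, Hspd1, Sned1, Pltp, Egfl7, Rps18, Hspe1 and Col4a1 with Col4a2, which overlap other genes, are uncertain, as are genes with near copies such as the H2 class I genes, Ifit3, Oas1a, Serpina3g and Serpina3n.

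In edgeR's quasi-likelihood test with Benjamini-Hochberg adjustment, 3488 of 13523 genes rose and 3764 fell on StiffA, which is 25.8% and 27.8% of the genes tested (53.6% in all). In what follows, rose and fell are used where this test gave an adjusted p below 0.05, changes are log2 fold changes of StiffA over fresh cells ± SE, and the median over all genes tested was -0.03. Past 2-fold, 1964 genes (14.5%) rose and 1938 (14.3%) fell. The groups of libraries did not overlap for 4008 genes higher on StiffA (29.6%) and 4362 lower (32.3%). A count within a gene group is to be read against these shares.

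The largest rises were genes almost silent in fresh aged cells. Col28a1, a collagen chain related to type VI collagen (ENSMUSG00000068794, chromosome 6, 7997808 to 8192618), measured 0, 0 and 0 CPM in the fresh libraries and 423, 407 and 409.7 CPM on StiffA. With a floor of 3 counts over the fresh group this is at least 1010-fold higher on StiffA. Col11a1, a fibrillar collagen chain best known from cartilage, measured 0, 0 and 0 CPM in the fresh libraries and 268, 270.3 and 264 CPM on StiffA, at least 656-fold higher. Scel, which encodes the cornified envelope protein sciellin, had 0 counts in the fresh libraries and 214, 231 and 198 CPM on StiffA, at least 530-fold higher. Ecrg4, Kif26b, Aoc3 and Bmp3 also had 0 fresh counts and were at least 91.8, 79, 65.6 and 52.8-fold higher. Ccn5, a matricellular gene of the CCN family, measured 2.07, 3.33 and 2.36 CPM in the fresh libraries and 2849, 2806 and 2649 CPM on StiffA (log2 fold change 10.03 ± 0.16, adjusted p = 9.4e-30). Ptn, which encodes the growth factor pleiotrophin, had 3 fresh counts in all. The ratio of its group counts, scaled by summed library sizes, was 456 with a 95% counting interval of 156 to 2210. Upk3b, a mesothelial marker, had 1 fresh count, with a ratio of 255 (interval 45.4 to 10100). Other markers on the same list were lower, with Aldh1a2 at -0.99 ± 0.10, Krt19 at 23 counts fresh and 2 on StiffA and Upk1b at 14 and 1.

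**Figure D1:**
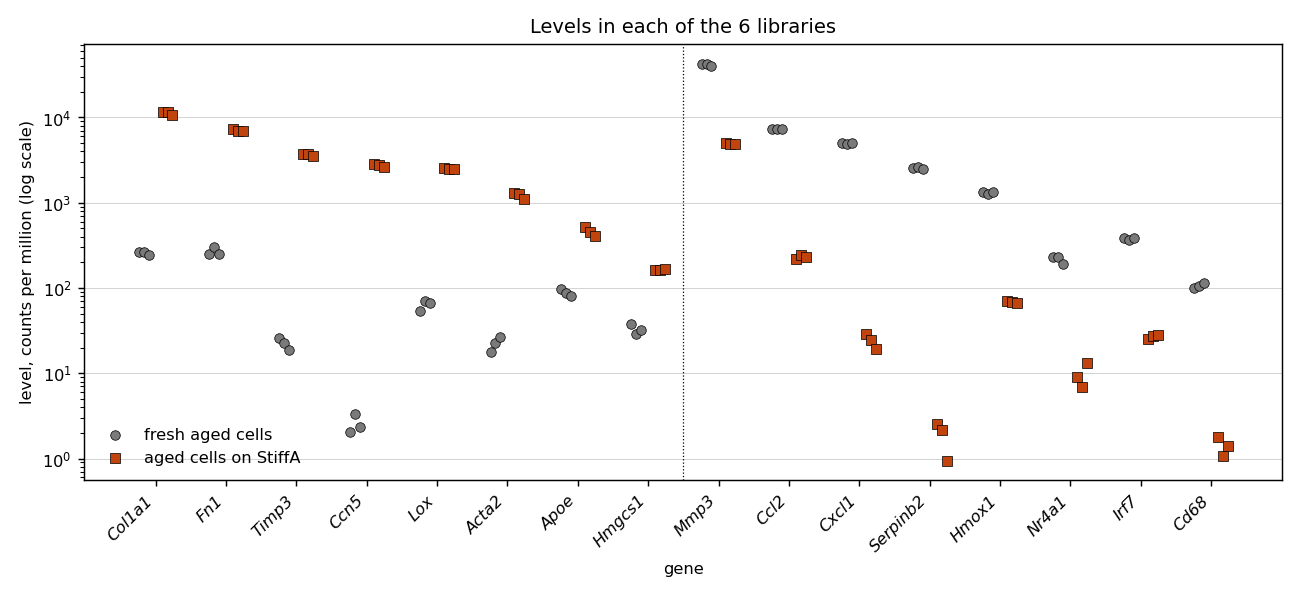
Levels of 16 named genes in CPM, on a log scale, with 1 point per library for the 3 fresh aged libraries (grey circles) and the 3 libraries of aged cells on StiffA (red squares). Left of the dotted line are genes higher on StiffA and right of it genes lower there, and the groups do not overlap for any gene shown.

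Inflammatory and protease genes were among the largest falls. Mmp13, the main fibrillar collagenase of rodents (ENSMUSG00000050578, chromosome 9, 7272514 to 7283332), measured 2544, 2625 and 2572 CPM in the fresh libraries and 0, 0 and 0.474 CPM on StiffA. This is 18971 counts in fresh cells against 1 count on StiffA, a ratio of 19800 with a counting interval of 3550 to 781000, and with so few counts its fitted fold change depends on the prior count. Csf3, the granulocyte growth factor G-CSF, went from 15758 counts to 1, with levels of 2217, 2146 and 2071 CPM in the fresh libraries and 0, 0 and 0.474 CPM on StiffA. Serpinb2, which encodes plasminogen activator inhibitor 2, measured 2523, 2648 and 2508 CPM in the fresh libraries and 2.53, 2.15 and 0.947 CPM on StiffA (-10.32 ± 0.22, adjusted p = 1.79e-26). Penk, the enkephalin precursor, had 1622 counts in fresh cells and 0 on StiffA, at least 563-fold lower. U90926, Trdc, Sprr2h, Ccl3 and the scavenger receptor gene Msr1 were at 0 on StiffA as well, at least 280, 188, 137, 118 and 112-fold lower. Trdc encodes a constant region of the T cell receptor, and 9 lymphocyte markers summed to 0 to 1.249 CPM in fresh cells and 0.4737 to 1.436 CPM on StiffA. Msr1 marks macrophages, whose summed markers moved the same way, and Sprr2h lost its call with DESeq2 (adjusted p = 0.253).

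Fibrillar collagen genes were higher on StiffA. 7 of 8 measured fibrillar collagen chains rose and none fell, with a median of 3.17. Col1a1 (ENSMUSG00000001506, chromosome 11, 94827050 to 94843869), whose product joins that of Col1a2 in type I collagen, measured 265, 263 and 242 CPM in the fresh libraries and 11610, 11710 and 10670 CPM on StiffA. Every StiffA library stood above every fresh one (5.46 ± 0.08, adjusted p = 2.33e-30), a ratio of means of 44.2. Its partner chain Col1a2 measured 177, 192 and 152 CPM in the fresh libraries and 2867, 2886 and 2831 CPM on StiffA (4.04 ± 0.08, adjusted p = 1.33e-27), and the type III chain Col3a1 456, 471 and 441 CPM in the fresh libraries and 5169, 5199 and 4855 CPM on StiffA (3.48 ± 0.08, adjusted p = 1.49e-25). The type V chain Col5a2, which sets fibril diameter, changed by 2.87 ± 0.09. The chain that did not pass the test was Col5a3 (-0.55 ± 0.28, adjusted p = 0.0996).

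Among the other collagens 7 of 9 rose and none fell (median 2.67). Col6a1 and Col6a2, chains of the beaded type VI collagen that lines cells, changed by 4.83 ± 0.09 and 2.94 ± 0.11. Col12a1 and Col14a1, which sit on the surface of collagen fibrils, changed by 5.59 ± 0.17 and 5.01 ± 0.20, and Col16a1 by 2.67 ± 0.17. Of the genes that fold, trim and crosslink collagen, 19 of 24 rose and 2 fell (median 1). Lox, the lysyl oxidase that crosslinks collagen and elastin, measured 53.9, 70.3 and 67.3 CPM in the fresh libraries and 2580, 2455 and 2467 CPM on StiffA. The groups did not overlap (5.29 ± 0.15, adjusted p = 6.23e-23). Serpinh1, the collagen chaperone HSP47, measured 4595, 4435 and 4134 CPM in the fresh libraries and 11510, 11750 and 11070 CPM on StiffA (1.38 ± 0.06, adjusted p = 5.61e-19). Pcolce, which speeds removal of the collagen C-propeptide, changed by 2.71 ± 0.11, P4ha1, a prolyl hydroxylase subunit, by 2.20 ± 0.13, and Loxl3 by 1.41 ± 0.11. The 2 that fell were Pcolce2 and the N-propeptidase Adamts14 (-1.06 and -1.56).

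Elastic fibre genes rose in 11 of 13 cases and 1 fell (median 2.89). Mfap4, a microfibril protein gene, measured 2.07, 3.33 and 1.97 CPM in the fresh libraries and 381, 379.8 and 359 CPM on StiffA (7.22 ± 0.26, adjusted p = 1.9e-20). Fbln5, which is needed for elastic fibre assembly, measured 44.8, 28.3 and 38.6 CPM in the fresh libraries and 566, 528 and 547 CPM on StiffA (3.87 ± 0.10, adjusted p = 8.38e-24). Fbln1, Fbln2 and Emilin1 changed by 2.88 ± 0.09, 3.44 ± 0.08 and 2.54 ± 0.07. In the matricellular and fibrotic matrix group 17 of 25 rose and 5 fell (median 2.05). Fn1, fibronectin, measured 250.5, 302 and 248 CPM in the fresh libraries and 7337, 6885 and 6879 CPM on StiffA (4.72 ± 0.10, adjusted p = 3.61e-26). Postn, which encodes periostin, measured 0.415, 1.25 and 1.97 CPM in the fresh libraries and 44.8, 45.6 and 46.9 CPM on StiffA (5.16 ± 0.34, adjusted p = 8e-14). The small proteoglycans biglycan (Bgn) and fibromodulin (Fmod) changed by 2.79 ± 0.07 and 7.34 ± 0.33, the latter from 3 fresh counts, and the CCN gene Ccn4 by 7.11 ± 0.28. Those that fell were tenascin C (Tnc, -1.66), osteopontin (Spp1, -3.73), versican (Vcan, -1.50), Thbs1 (-0.58) and Ccn1 (-0.63). Of 19 basement membrane genes 14 rose and 2 fell (median 1.56), with the type IV collagen chains Col4a1, Col4a2 and Col4a5 at 1.56 ± 0.08, 1.80 ± 0.08 and 3.74 ± 0.09 and the laminin chains Lamb1 and Lamb2 at 1.22 ± 0.07 and 1.96 ± 0.11.

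Genes of the contractile myofibroblast programme were higher on StiffA. Of 18 measured contractile genes 14 rose and 2 fell, with a median of 2. Acta2, smooth muscle alpha-actin and the usual myofibroblast marker, measured 17.8, 22.9 and 26.4 CPM in the fresh libraries and 1286, 1250 and 1121 CPM on StiffA. All StiffA libraries lay far above the fresh ones (5.76 ± 0.16, adjusted p = 1.81e-23). Myl9, a regulatory light chain of myosin, measured 18.2, 17.1 and 10.2 CPM in the fresh libraries and 208, 216 and 189 CPM on StiffA (3.75 ± 0.21, adjusted p = 7.15e-16). Lmod1, which nucleates actin filaments in smooth muscle, changed by 5.23 ± 0.34, vinculin (Vcl), which links integrins to actin, by 2.46 ± 0.10 and calponin 2 (Cnn2) by 1.63 ± 0.09. Those that fell were Tagln2 (-1.09) and Cald1 (-0.31). These are also genes of smooth muscle cells, whose marker sum was 206.3 to 239.8 CPM fresh and 570.3 to 611.1 CPM on StiffA, and of whose markers 5 of 7 rose and none fell, among them Notch3 (3 fresh counts, ratio 78.7, interval 26.6 to 384) and Pdgfrb (1.49 ± 0.12). Most of the sum was Pdgfrb, at 150.2, 179.4 and 159.9 CPM fresh and 477.3, 460.2 and 437.7 CPM on StiffA, while the pericyte marker Rgs5 had 5.39, 3.75 and 3.94 CPM in the fresh libraries and 2.89, 0.718 and 1.42 CPM on StiffA without passing the test, Kcnj8 had 6 counts fresh and 2 on StiffA, and Higd1b and Vtn were at 0 in both groups. The part of such cells in the contractile result was not tested.

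Focal adhesion genes rose in 13 of 21 cases and 4 fell (median 0.35). Tns1, tensin 1, which anchors actin at mature adhesions, measured 36.5, 27.5 and 28.7 CPM in the fresh libraries and 506, 513 and 525 CPM on StiffA (4.06 ± 0.13, adjusted p = 5.78e-22). Tln2, Parva and Pdlim5 changed by 2.38 ± 0.12, 1.24 ± 0.10 and 1.10 ± 0.09. Of 15 integrin subunits 7 rose and 4 fell. The collagen receptor subunits Itga11 and Itga1 measured 2.9, 2.08 and 5.12 CPM in the fresh libraries and 86.4, 103 and 72 CPM on StiffA, and 5.39, 6.66 and 5.91 CPM in the fresh libraries and 90.4, 88.3 and 90 CPM on StiffA. Fresh and StiffA libraries did not overlap for either gene (4.67 ± 0.23, adjusted p = 5.46e-17, and 3.89 ± 0.22, adjusted p = 1.86e-15). Itga8 and Itgb5, subunits of integrins that bind RGD motifs, changed by 3.77 ± 0.33 and 3.53 ± 0.15. Itgb3, the beta subunit of the vitronectin receptor, fell, with 208, 201 and 181 CPM in the fresh libraries and 20.6, 19.4 and 19.9 CPM on StiffA (-3.30 ± 0.16, adjusted p = 5.08e-17).

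The YAP and TAZ group, genes tied to the mechanically regulated coactivators YAP and TAZ, split, with 11 of 22 higher and 5 lower. Ccn2, connective tissue growth factor, measured 41.5, 40 and 33.1 CPM in the fresh libraries and 91.5, 76.8 and 75.8 CPM on StiffA (1.09 ± 0.17, adjusted p = 2.93e-06). Amotl2 and Tead3 changed by 1.25 ± 0.10 and 2.37 ± 0.32. Ccn1 and tissue factor (F3), which are also targets of immediate early signals, fell by 0.63 and 0.82 on the log2 scale. Among TGF-beta ligands, receptors and feedback genes 8 of 23 rose and 9 fell. Tgfb2 measured 9.12, 7.49 and 8.66 CPM in the fresh libraries and 119, 110.2 and 129 CPM on StiffA (3.82 ± 0.15, adjusted p = 1.9e-19) and Tgfb3 8.3, 15 and 9.84 CPM in the fresh libraries and 139, 147 and 147 CPM on StiffA (3.70 ± 0.15, adjusted p = 1.9e-19). Lrrc32, which holds latent TGF-beta at the cell surface, the activin subunit Inhba and the corepressor Tgif1 fell (-1.23 ± 0.07, -1.28 ± 0.08 and -2.56 ± 0.12), and Tgfb1 itself fell by 2.25. The ligand genes of the family thus moved in opposite directions.

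All 13 measured matrix metalloproteinases changed, 6 higher and 7 lower. Those that fell include collagenases, stromelysins and gelatinase B (Mmp9), which inflammatory signals are known to induce. Beside Mmp13, Mmp10 (stromelysin 2) measured 1339, 1313 and 1277 CPM in the fresh libraries and 0.723, 2.51 and 2.37 CPM on StiffA (-9.44 ± 0.24, adjusted p = 5.67e-24), and Mmp3 (stromelysin 1) 42160, 42600 and 40270 CPM in the fresh libraries and 4989, 4923 and 4917 CPM on StiffA (-3.08 ± 0.05, adjusted p = 7.91e-29). Mmp3 fell by a far smaller factor than Mmp13, a ratio of means of 8.43. Mmp12, Mmp9 and Mmp8 changed by -4.36 ± 0.18, -5.29 ± 0.76 and -2.74 ± 0.28, and the membrane-bound Mmp14 by -0.83 ± 0.30 (adjusted p = 0.0206). Mmp16, another membrane-bound member, rose, with 11.6, 11.7 and 4.72 CPM in the fresh libraries and 163, 165 and 149.7 CPM on StiffA (4.09 ± 0.17, adjusted p = 5.49e-19). Mmp23, Mmp11, Mmp17, Mmp19 and the gelatinase Mmp2 rose by 2.72, 2.35, 2.05, 1.62 and 0.75.

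Mmp13, Mmp10 and Mmp3 lie near each other on chromosome 9, and each has an AP-1 motif (TGANTCA, the letters bound by Fos and Jun dimers) shortly before its start. The sequences, from RefSeq on build GRCm38.p6, cover the 150 bases before the start on the plus strand, at chr9:7272364-7272513, chr9:7502192-7502341 and chr9:7445672-7445821, with the motif in capitals, at 35, 63 and 46 bases before the start.
Mmp13: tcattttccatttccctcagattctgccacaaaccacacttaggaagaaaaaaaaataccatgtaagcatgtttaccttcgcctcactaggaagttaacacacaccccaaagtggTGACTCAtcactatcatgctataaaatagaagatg
Mmp10: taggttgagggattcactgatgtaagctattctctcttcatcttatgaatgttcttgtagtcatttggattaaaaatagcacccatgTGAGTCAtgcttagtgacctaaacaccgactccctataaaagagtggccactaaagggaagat
Mmp3: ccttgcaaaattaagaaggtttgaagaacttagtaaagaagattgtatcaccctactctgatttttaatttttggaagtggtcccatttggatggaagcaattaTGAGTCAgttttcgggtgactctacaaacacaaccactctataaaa
In windows of 300 bases, 250 before and 50 after the start, searched on both strands, 3 of 11 metalloproteinase promoters with a sequence held this motif, beside 7.93% of 27025 promoters. A match is a description of the letters and not a bound site.

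Protease inhibitors and plasminogen genes moved in both directions, 9 of 14 higher and 5 lower. Timp3, an inhibitor that is bound to the matrix, measured 25.7, 22.9 and 18.9 CPM in the fresh libraries and 3724, 3775 and 3542 CPM on StiffA (7.35 ± 0.14, adjusted p = 3.5e-27). Adamts5, an aggrecanase, measured 146, 156 and 157 CPM in the fresh libraries and 1683, 1686 and 1604 CPM on StiffA (3.44 ± 0.12, adjusted p = 1.22e-20). Plat, the tissue plasminogen activator, and its inhibitor Serpine2 changed by 2.60 ± 0.17 and 2.18 ± 0.09. Plaur, the urokinase receptor, fell, with 382, 425 and 380 CPM in the fresh libraries and 16.6, 17.2 and 14.7 CPM on StiffA (-4.60 ± 0.19, adjusted p = 3.39e-19).

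Cytokine and chemokine genes were lower on StiffA. Of 29 measured members 25 fell and 3 rose, with a median of -4.33 (-4.10 with genes at 0 set to their bound), where 27.8% of all genes fell. Beside Csf3, the neutrophil chemokine gene Cxcl1 measured 4957, 4949 and 4974 CPM in the fresh libraries and 28.6, 24.8 and 19.4 CPM on StiffA (-7.66 ± 0.15, adjusted p = 5.69e-27), and Cxcl2 had 2028 counts fresh and 3 on StiffA (ratio 704, interval 241 to 3420). The monocyte chemokine genes Ccl2 and Ccl7 measured 7289, 7357 and 7250 CPM in the fresh libraries and 221, 242 and 231 CPM on StiffA, and 5366, 5438 and 5270 CPM in the fresh libraries and 403, 411 and 369.5 CPM on StiffA. Neither gene's groups overlapped (-4.98 ± 0.07, adjusted p = 2.33e-30, and -3.76 ± 0.09, adjusted p = 3.16e-25). Il6, the acute inflammatory cytokine, measured 201, 249.8 and 265 CPM in the fresh libraries and 40.1, 39.5 and 39.3 CPM on StiffA (-2.59 ± 0.14, adjusted p = 8.46e-16). The 3 that rose were Cxcl12 (1.27), a chemokine that fibroblasts make at rest, Cx3cl1 (0.90) and Ccl20 (15 counts on StiffA against 1).

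NF-kB subunits, feedback genes and adhesion targets fell in 16 of 21 cases and 2 rose (median -1.27). Nfkbia, the NF-kB inhibitor that NF-kB itself induces, measured 282, 293 and 301 CPM in the fresh libraries and 37.2, 34.5 and 31.7 CPM on StiffA (-3.08 ± 0.16, adjusted p = 2.56e-16). Tnfaip3, the feedback enzyme A20, measured 195, 184 and 163 CPM in the fresh libraries and 14.1, 11.5 and 10.9 CPM on StiffA (-3.88 ± 0.21, adjusted p = 4.05e-16). Nfkbiz, Sod2 and Vcam1, a vascular adhesion molecule that activated fibroblasts also carry, changed by -2.88 ± 0.17, -3.21 ± 0.08 and -2.83 ± 0.15. Myeloid markers moved with this group. Cd68, a macrophage marker, measured 99.1, 106 and 115 CPM in the fresh libraries and 1.81, 1.08 and 1.42 CPM on StiffA, Cd14 143, 123 and 119 CPM in the fresh libraries and 8.32, 8.97 and 9.47 CPM on StiffA and Ctss 71.8, 76.6 and 68.9 CPM in the fresh libraries and 3.62, 0.359 and 0.947 CPM on StiffA. Every StiffA library lay below every fresh one for these markers. Several of these cytokine genes are also expressed by macrophages, and the part of macrophages in the fall of cytokine genes was not tested.

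The promoters of Cxcl1 and Cxcl2 are shown because both genes fell by large factors. The 150 bases before the start, from RefSeq on GRCm38.p6, plus strand, at chr5:90891095-90891244 and chr5:90903749-90903898, hold an NF-kB site in capitals, with its first base 71 and 97 bases before the start. The site was found on both strands, shifted by 1 base.
Cxcl1: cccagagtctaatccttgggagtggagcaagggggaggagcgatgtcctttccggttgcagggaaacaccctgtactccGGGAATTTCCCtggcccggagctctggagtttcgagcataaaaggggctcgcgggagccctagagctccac
Cxcl2: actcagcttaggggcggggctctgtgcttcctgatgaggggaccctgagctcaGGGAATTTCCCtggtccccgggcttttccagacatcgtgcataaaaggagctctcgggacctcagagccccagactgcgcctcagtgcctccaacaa
An NF-kB site was found in 7 of 21 cytokine promoters and 8 of 16 promoters of the NF-kB group, beside 4.35% of all 27025 promoters.

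Interferon-stimulated genes fell in 28 of 32 cases and 1 rose (median -2.26). Irf7, the transcription factor that amplifies type I interferon, measured 382, 370.1 and 391 CPM in the fresh libraries and 24.9, 27.6 and 28.4 CPM on StiffA (-3.82 ± 0.14, adjusted p = 4.8e-20). Isg15, a ubiquitin-like modifier, measured 258, 271 and 274 CPM in the fresh libraries and 27.5, 21.2 and 14.7 CPM on StiffA (-3.64 ± 0.20, adjusted p = 1.24e-15). Ifit1, which binds viral RNA, measured 409, 418 and 417 CPM in the fresh libraries and 36.5, 40.2 and 53 CPM on StiffA (-3.27 ± 0.18, adjusted p = 9.02e-16). All of these fresh libraries stood above all StiffA libraries. Ifit3 and Oas1a, an antiviral oligoadenylate synthetase, changed by -2.59 ± 0.14 and -3.33 ± 0.15, and the gene that rose was Ifi27 (1.10). Stat2 and Irf9, factors that carry the interferon signal, changed by -0.36 and -1.07.

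The promoters of Ifit1 and Isg15 show the interferon-stimulated response element (ISRE, searched as a pair of GAAA repeats with any 2 bases between them) in capitals. The 150 bases before the start, from RefSeq on GRCm38.p6, lie at chr19:34640739-34640888 on the plus strand and chr4:156200819-156200968 on the minus strand. Ifit1 holds 2 matches on the strand opposite to the gene, and Isg15 holds 3 that overlap.
Ifit1: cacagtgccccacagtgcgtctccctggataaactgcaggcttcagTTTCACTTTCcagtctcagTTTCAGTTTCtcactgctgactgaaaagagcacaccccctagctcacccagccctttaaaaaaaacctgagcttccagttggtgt
Isg15: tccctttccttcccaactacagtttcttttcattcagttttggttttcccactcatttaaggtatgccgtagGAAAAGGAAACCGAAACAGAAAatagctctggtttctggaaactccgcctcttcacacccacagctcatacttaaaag
The element was found in 14 of 26 promoters of the group with a sequence, beside 3.49% of all 27025.

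Class I antigen presentation genes, which interferon also raises, fell in 15 of 18 cases and none rose (median -1.01). H2-D1 and H2-K1, class I heavy chains, measured 2473, 2522 and 2461 CPM in the fresh libraries and 1091, 1088 and 965 CPM on StiffA, and 375, 355 and 379 CPM in the fresh libraries and 166, 167 and 138 CPM on StiffA. The groups were apart for both (-1.25 ± 0.12, adjusted p = 2.16e-10, and -1.23 ± 0.10, adjusted p = 5.6e-12). H2-T22, the peptide loading factor Tapbp and the immunoproteasome subunit Psmb8 changed by -2.35 ± 0.14, -0.89 ± 0.07 and -1.93 ± 0.19. Complement and acute-phase genes went mainly the other way, with 8 of 14 higher and 4 lower. Serpina3n, a serine protease inhibitor, measured 8.71, 6.24 and 8.27 CPM in the fresh libraries and 392, 401 and 385 CPM on StiffA (5.65 ± 0.14, adjusted p = 4.97e-25). Complement C3 measured 111, 104 and 115 CPM in the fresh libraries and 448, 456 and 446 CPM on StiffA (2.03 ± 0.08, adjusted p = 6.17e-19), and the complement regulator Serping1 changed by 2.22 ± 0.06. Lipocalin 2 (Lcn2), Saa3, Cfb and Ptx3 fell, by 5.13, 3.66, 3.03 and 2.56.

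**Figure D2:**
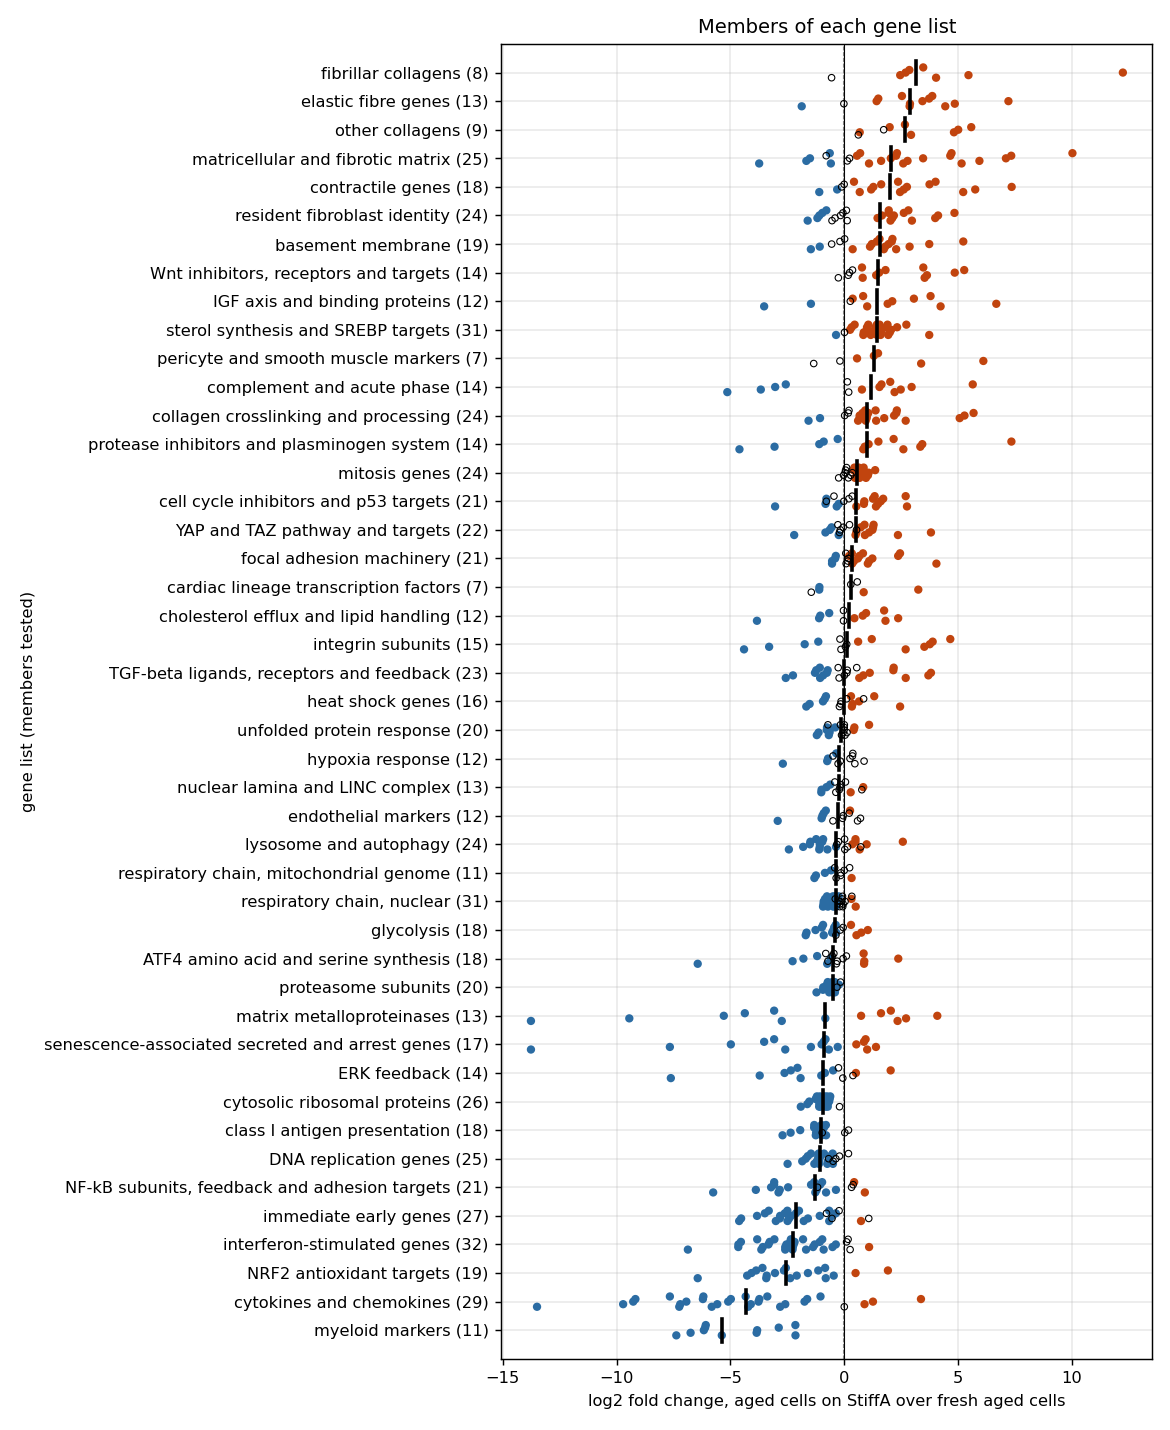
Log2 fold change of StiffA over fresh aged cells for each tested member of the gene lists, with filled points for genes that rose (red) or fell (blue), open points for genes that did not pass the test, black bars for the median of each list and the number tested in brackets. Collagen and elastic fibre lists have medians between 2.67 and 3.17, and cytokines have a median of -4.33.

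Immediate early genes, which signals switch on within minutes, fell in 22 of 27 cases and 1 rose (median -2.12). Nr4a1, an orphan nuclear receptor, measured 233, 234 and 192 CPM in the fresh libraries and 9.04, 6.82 and 13.3 CPM on StiffA (-4.53 ± 0.19, adjusted p = 8.44e-19). Fosl1, an AP-1 subunit, measured 88.3, 89.9 and 73.2 CPM in the fresh libraries and 3.98, 3.95 and 1.9 CPM on StiffA (-4.61 ± 0.26, adjusted p = 9.68e-16). Myc, Ier3 and Btg1 changed by -2.33 ± 0.10, -3.83 ± 0.19 and -3.31 ± 0.21, and the gene that rose was Klf4 (0.74). Fos, the best known member, measured 24.1, 18.3 and 19.3 CPM in the fresh libraries and 17, 16.5 and 8.05 CPM on StiffA, and its change did not pass the test (-0.53 ± 0.27, adjusted p = 0.101). ERK feedback genes fell in 9 of 14 cases and 2 rose. Dusp6, a phosphatase that shuts off ERK, measured 182, 183 and 175 CPM in the fresh libraries and 26, 31.9 and 29.8 CPM on StiffA (-2.62 ± 0.16, adjusted p = 7.31e-15). Phlda1, the growth factor gene Ereg and Spred1 changed by -3.71 ± 0.11, -2.34 ± 0.15 and -2.05 ± 0.20, and Spry1 rose (2.04 ± 0.16).

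NRF2 targets, which defend against oxidants, fell in 17 of 19 cases and 2 rose (median -2.56). Slc7a11, the cystine importer, measured 1352, 1359 and 1393 CPM in the fresh libraries and 16.6, 11.8 and 19.4 CPM on StiffA (-6.43 ± 0.19, adjusted p = 1.39e-22). Hmox1, haem oxygenase 1, measured 1334, 1273 and 1325 CPM in the fresh libraries and 70.2, 68.6 and 65.8 CPM on StiffA (-4.26 ± 0.16, adjusted p = 4.42e-20). The fresh libraries were all higher for both genes. Nqo1, Prdx1 and metallothionein 1 (Mt1) changed by -3.04 ± 0.14, -2.08 ± 0.08 and -3.87 ± 0.14. The 2 that rose were Keap1 (0.50), the repressor of NRF2, and Gstm1 (1.93).

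Cell cycle genes moved in opposite directions by phase. Of 24 mitosis genes 16 rose and none fell, with a median of 0.58. Ccnb2, a mitotic cyclin, measured 40.2, 42.9 and 33.5 CPM in the fresh libraries and 99.1, 104 and 96.6 CPM on StiffA (1.36 ± 0.13, adjusted p = 1.35e-10), and the proliferation marker Mki67 38.6, 28.7 and 35.4 CPM in the fresh libraries and 48.1, 52 and 53 CPM on StiffA (0.57 ± 0.16, adjusted p = 0.00391). Kif20a, Prc1, Bub1b and Kif11, genes of the spindle and its checkpoint, changed by 1.08 ± 0.11, 1.05 ± 0.12, 0.86 ± 0.14 and 0.72 ± 0.12. Of 25 DNA replication genes 20 fell and none rose (median -1.08). Mcm2, a subunit of the replicative helicase, measured 207, 224 and 190.2 CPM in the fresh libraries and 77.4, 86.5 and 86.7 CPM on StiffA (-1.31 ± 0.12, adjusted p = 4.29e-11). Cdt1, which loads that helicase, Mcm3, Mcm6 and the nucleotide reductase subunit Rrm2 changed by -2.48 ± 0.25, -1.60 ± 0.15, -1.08 ± 0.09 and -1.10 ± 0.10.

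Cell cycle inhibitors and p53 targets rose in 11 of 21 cases and fell in 5. Cdkn1a, the p53 target p21, measured 281, 291 and 275 CPM in the fresh libraries and 448, 404 and 375 CPM on StiffA (0.54 ± 0.10, adjusted p = 3.73e-05). Gadd45g, Trp53inp1, Ccng1 and Cdkn2d changed by 2.76 ± 0.11, 2.71 ± 0.20, 1.34 ± 0.11 and 1.27 ± 0.14, while Plk2, a p53-induced kinase, fell by 3.03. Cdkn2a, which encodes the senescence marker p16 and the p53 activator ARF, measured 4.56, 3.33 and 2.76 CPM in the fresh libraries and 11.9, 6.46 and 9.95 CPM on StiffA (1.40 ± 0.39, adjusted p = 0.0036) at few counts. Of 17 genes often used to describe senescence, 12 fell and 5 rose. The 5 that rose included the cell cycle inhibitors Cdkn1a, Cdkn2a and Cdkn2b, and those that fell included the secreted factors Mmp13, Cxcl1, Ccl2, Mmp3, Il6 and Igfbp3, which other groups above also hold.

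Sterol synthesis genes rose nearly without exception. 29 of 31 measured targets of SREBP, the factor that senses cholesterol, rose and 1 fell, with a median of 1.44, where 25.8% of all genes rose. Hmgcs1, which makes the precursor that HMG-CoA reductase uses, measured 37.3, 28.7 and 31.9 CPM in the fresh libraries and 164, 161 and 167 CPM on StiffA (2.33 ± 0.12, adjusted p = 9.73e-17). Sqle, squalene epoxidase, measured 95.8, 109 and 79.5 CPM in the fresh libraries and 348, 393 and 402 CPM on StiffA (2.01 ± 0.12, adjusted p = 5.37e-15). Every StiffA library was higher for both genes. Fads2, Cyp51 and Insig1, the feedback protein that holds SREBP in the endoplasmic reticulum, changed by 2.06 ± 0.09, 1.91 ± 0.14 and 1.60 ± 0.12, and the gene that fell was Ebp (-0.35).

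The promoters of Hmgcs1 and Idi1, an isomerase of the same pathway that rose by 1.44, are shown for their CCAAT boxes, which bind NF-Y, a known partner of SREBP. The 150 bases before the start, from RefSeq on GRCm38.p6, plus strand, lie at chr13:119690201-119690350 and chr13:8885456-8885605, with the box in capitals on the strand opposite to the gene.
Hmgcs1: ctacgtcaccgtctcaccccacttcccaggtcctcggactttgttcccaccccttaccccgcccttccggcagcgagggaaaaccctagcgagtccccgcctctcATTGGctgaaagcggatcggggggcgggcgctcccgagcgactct
Idi1: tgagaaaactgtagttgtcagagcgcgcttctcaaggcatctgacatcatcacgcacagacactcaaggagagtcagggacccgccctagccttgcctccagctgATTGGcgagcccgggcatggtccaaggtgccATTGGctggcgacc
A CCAAT box was found in 18 of 21 promoters of the group, beside 37.9% of all 27025. The sterol regulatory element, searched as ATCAC, any 1 base and CCAC, was found in 0 of the 21. This strict pattern was in only 0.244% of all 27025 promoters, so that 0 of 21 does not show that the group lacks the element. In the mitosis group, 17 of 20 promoters held a CCAAT box.

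Lipid handling genes split, with 6 of 12 higher and 4 lower. Apoe, the lipoprotein of cholesterol export, measured 96.6, 87.4 and 80.7 CPM in the fresh libraries and 513, 452 and 407 CPM on StiffA (2.38 ± 0.10, adjusted p = 8.11e-19). Pltp and the fatty acid carrier gene Fabp5 rose as well, by 1.76 and 1.82. Cd36, a fatty acid importer that macrophages also carry, fell, with 48.9, 59.1 and 54.7 CPM in the fresh libraries and 3.98, 4.67 and 2.37 CPM on StiffA (-3.83 ± 0.31, adjusted p = 5.57e-12), and Plin2, which coats lipid droplets, changed by -1.10 ± 0.10. Of 18 glycolysis genes 11 fell and 4 rose (median -0.40), with the glucose importer Slc2a1 at -1.69 ± 0.11, hexokinase 2 (Hk2) at -1.65 ± 0.15, Pkm at -0.98 ± 0.06 and Ldha at -0.93 ± 0.12.

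Genes of protein synthesis and turnover were lower on StiffA. 25 of 26 cytosolic ribosomal protein genes fell (median -0.93), with Rps2, Rpl4, Rps18 and Rps14 at -1.90 ± 0.20, -0.90 ± 0.07, -0.81 ± 0.10 and -0.72 ± 0.09. 18 of 20 constitutive proteasome subunits fell (median -0.51), with Psma6 at -1.21 ± 0.12 and Psmd11 at -0.93 ± 0.10. None of these rose in either group.

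Resident fibroblast genes were not uniformly lower. Of 24 measured identity genes 13 rose and 5 fell (median 1.56). Tcf21, a transcription factor of the resident cardiac fibroblast, measured 11.6, 14.2 and 16.1 CPM in the fresh libraries and 89, 93.7 and 76.3 CPM on StiffA (2.62 ± 0.21, adjusted p = 9.98e-12). Dpt, dermatopontin, measured 4.15, 7.91 and 2.76 CPM in the fresh libraries and 139, 152 and 138 CPM on StiffA (4.85 ± 0.19, adjusted p = 1.11e-19). Gsn, Hsd11b1, Dpep1 and Fstl1 changed by 2.83 ± 0.08, 2.04 ± 0.09, 1.66 ± 0.07 and 1.47 ± 0.05. Pdgfra fell (-1.17 ± 0.09, adjusted p = 1.11e-12), as did Cd34 (-1.60), Dcn (-1.09), Cxcl14 (-0.96) and Lum (-0.78). Of 7 cardiac lineage transcription factors 2 rose and 2 fell, and this share (57.1%) was near the 53.6% of all genes tested. Tbx20 changed by 3.26 ± 0.13, Mef2c by 0.86 ± 0.22, Mef2a by -1.09 ± 0.29 and Gata6 by -1.09 ± 0.33. Gata6 lost its call without fresh replicate 1 (adjusted p = 0.0568).

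Genes of the IGF and Wnt pathways were mostly higher. 9 of 12 IGF genes rose and 2 fell (median 1.46). Igf1 measured 13.7, 9.57 and 13.4 CPM in the fresh libraries and 176, 168 and 169 CPM on StiffA (3.80 ± 0.14, adjusted p = 4.88e-20). Its binding protein genes Igfbp4 and Igfbp6 changed by 3.07 ± 0.12 and 2.12 ± 0.21, and Pappa, a protease that frees IGF from Igfbp4, had 2 fresh counts and a ratio of 125 (interval 34.3 to 1040). Igfbp3 fell (-3.52 ± 0.41, adjusted p = 1.49e-08). Of 14 Wnt genes 10 rose and none fell (median 1.47). Sfrp1, a secreted Wnt inhibitor, measured 43.5, 55.4 and 55.1 CPM in the fresh libraries and 1858, 1822 and 2307 CPM on StiffA (5.28 ± 0.13, adjusted p = 5.89e-25), and Sfrp2, Dkk3, Frzb and the receptor gene Fzd2 changed by 3.64 ± 0.19, 3.54 ± 0.32, 0.79 ± 0.08 and 4.86 ± 0.49.

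The change from fresh isolation to StiffA differed between aged and young cells for 1888 of 13523 genes (14.0%), by the interaction of age and culture in the same fit. The change was more positive in aged cells for 937 genes (6.93%) and more negative for 951 (7.03%), with 575 (4.25%) and 483 (3.57%) past 2-fold. Scaling by library totals alone gave 1706 and 578, and moved the median of all genes from -0.02 to 0.19, so that the share of called genes that were higher went from 49.6% to 74.7%. Of 24 mitosis genes, all 24 had a more positive change in aged cells (median 2.15), as had 19 of 25 DNA replication genes (median 1.10). Mki67 measured 138, 136 and 151 CPM in fresh young cells and 45.8, 45.5 and 56.7 CPM in young cells on StiffA, beside 38.6, 28.7 and 35.4 and 48.1, 52 and 53 CPM in aged cells. It fell in young cells (-1.52 ± 0.15) and rose in aged cells (0.57 ± 0.16), an interaction of 2.09 ± 0.22, adjusted p = 2.54e-08. Ankle1 and Nsl1, a kinetochore gene, were among the 8 largest positive interactions (3.18 ± 0.38, adjusted p = 1.91e-07, and 2.96 ± 0.41, adjusted p = 2.58e-06). The rise of Nsl1 in aged cells alone rests on few counts (adjusted p = 0.0478). Its call was lost under several alternatives, among them leaving out fresh replicate 2 (0.175) and DESeq2 (0.0903).

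**Figure D3:**
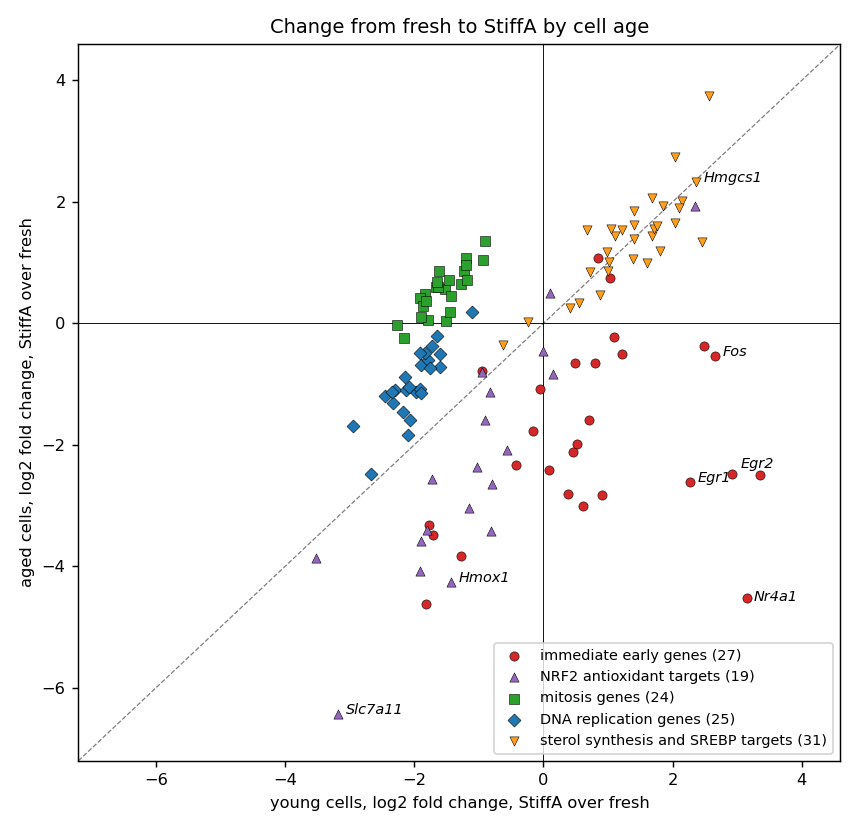
Log2 fold change from fresh to StiffA in young cells (horizontal axis) and in aged cells (vertical axis) for the members of 5 gene lists, 1 point per gene, with the dashed line where both are equal. All 24 mitosis genes lie above the line, most immediate early genes lie below it, and the sterol genes lie near it.

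Many matrix genes had a more positive change in aged cells, 4 of 8 fibrillar collagens with none more negative, 4 of 9 other collagens with none, 6 of 13 elastic fibre genes with 2 and 10 of 25 matricellular genes with 6. For Col1a1 the young libraries measured 1286, 1278 and 1416 CPM fresh and 12130, 12880 and 13780 CPM on StiffA, a change of 3.29 ± 0.07, and the interaction was 2.18 ± 0.10, adjusted p = 7.49e-17. Spon2, which encodes the matrix protein spondin 2, measured 15.3, 15.4 and 13.8 CPM fresh and 290.4, 298 and 298 CPM on StiffA in aged cells, against 239, 238 and 244 and 388, 375 and 378 CPM in young cells (3.65 ± 0.12, adjusted p = 2.65e-20). Ccn5 and Notch3 also had more positive changes in aged cells (3.75 ± 0.22, adjusted p = 4.8e-14, and 3.60 ± 0.65, adjusted p = 0.00014). Col11a1, Kif26b and Scel, at 0 in fresh aged cells, had fitted interactions of 5.80, 5.33 and 4.03, whose size depends on the prior count, and Scel lost its call under 7 alternatives (adjusted p 0.0547 to 0.198).

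Immediate early genes had a more negative change in aged cells in 22 of 27 cases and a more positive one in none (median -2.50). Nr4a1 rose in young cells, from 40.6, 36.4 and 33.4 CPM to 346, 307 and 331 CPM, and fell in aged cells (-4.53 ± 0.19), an interaction of -7.68 ± 0.25, adjusted p = 2.65e-20. Egr1 and Egr2 likewise rose in young cells (2.27 ± 0.17 and 2.93 ± 0.16) and fell in aged cells (-2.61 ± 0.17 and -2.49 ± 0.16), with interactions of -4.88 ± 0.24, adjusted p = 7.78e-16, and -5.41 ± 0.23, adjusted p = 2.92e-17. Ptgs2, cyclooxygenase 2, measured 403, 475 and 462 CPM in fresh aged cells against 23.1, 26.6 and 25.8 CPM in fresh young cells. Its change from fresh to StiffA was -5.58 ± 0.23 in aged and -0.35 ± 0.23 in young cells, an interaction of -5.22 ± 0.34, adjusted p = 6.48e-13. Plk3, Cxcl2 and Ano3 had negative interactions as well (-5.96 ± 1.53, -4.47 ± 0.76 and -4.35 ± 0.77), whose sizes rest on low levels in some groups. On StiffA, aged cells had a mean of 1.586 CPM for Plk3 and 3 counts for Cxcl2, and fresh young cells had a mean of 0.096 CPM for Ano3. Ano3 rose in both ages, by 3.355 in aged and 7.701 in young cells. The collagenase Mmp13 had a fitted interaction of -6.14 that rests on few StiffA counts, and it lost its call without young StiffA replicate 1 or 2 (adjusted p = 0.174 and 0.183) and without aged StiffA replicate 1 or 2 (0.0623 and 0.0632). Of 32 interferon-stimulated genes 16 had a more negative change in aged cells and 1 a more positive one, of 19 NRF2 targets 12 and 0, and of 14 ERK feedback genes 9 and 0.

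Aged cells on StiffA were then set against the equally weighted mean of aged cells on SoftY, StiffY and SoftA. This contrast uses no fresh library and called 421 of 13523 genes (3.11%), 204 higher (1.51%) and 217 lower (1.60%), with 11 (0.0813%) and 49 (0.362%) past 2-fold. Scaling by library totals gave 146 and 238, which takes the share of called genes that were higher from 48.5% to 38.0%. Leaving out 1 StiffA library moved the counts most, to 71 and 110 without replicate 1 and to 77 and 129 without replicate 2. Of 32 interferon-stimulated genes 15 were lower on StiffA than on the other substrates and none higher (median -0.60). Irf7 measured 24.9, 27.6 and 28.4 CPM on StiffA, 83.3, 66.7 and 78.8 CPM on SoftA, 53.2, 44.7 and 37.3 CPM on StiffY and 62.1, 66.3 and 75.9 CPM on SoftY (-1.19 ± 0.13, adjusted p = 3.89e-07). All StiffA libraries lay below the others for Irf7. Ifit1 changed in the same contrast by -1.31 ± 0.16, with 36.5, 40.2 and 53 CPM on StiffA and 45.2, 50 and 45.4 CPM on StiffY, which overlap, beside 172, 111 and 145 CPM on SoftA and 129, 189 and 233 CPM on SoftY. Of 24 identity genes 9 were lower and 1 higher, and of 14 complement and acute-phase genes 7 were lower and 1 higher.

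Apoe was lowest on StiffA, with 513, 452 and 407 CPM, beside 720, 781 and 885 CPM on SoftA, 1460, 1753 and 1478 CPM on StiffY and 1406, 1488 and 1575 CPM on SoftY (-1.43 ± 0.08, adjusted p = 3.52e-13). All StiffA libraries lay below all other cultured aged libraries for this gene, yet above the fresh ones. Enpp2, which encodes the lysophospholipase autotaxin, Fgl2 and Sned1, a matrix protein gene, were lower on StiffA as well (-1.94 ± 0.18, adjusted p = 1.53e-08, -1.67 ± 0.10, adjusted p = 4.26e-13, and -1.80 ± 0.22, adjusted p = 2.5e-06). Enpp2 had a low mean of 9.099 CPM (SD 2.975) on StiffA, and Sned1 had 17.62 CPM (SD 8.956). Cnmd, Cilp and Serpina3g, each under 10 CPM on StiffA, changed by -2.02 ± 0.24, -1.79 ± 0.39 and -1.37 ± 0.30, of which Cilp and Serpina3g lost their calls without 1 StiffA library (adjusted p = 0.0954 without replicate 2, and 0.0674 without replicate 3).

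Genes higher on StiffA than on the other substrates had smaller differences. Col11a1 measured 268, 270.3 and 264 CPM on StiffA, 256, 262 and 246 CPM on SoftA, 136, 139 and 131 CPM on StiffY and 114, 132 and 143 CPM on SoftY (0.70 ± 0.08, adjusted p = 2.14e-06). Both substrates with aged ECM stood above both with young ECM. Col12a1, Ccn4, Lmod1 and the lactate exporter gene Slc16a3 changed by 0.82 ± 0.09, 0.79 ± 0.11, 0.83 ± 0.16 and 0.91 ± 0.11. Mean levels of Col12a1 were 309.9 CPM on StiffA, 263.7 on SoftA, 149.5 on StiffY and 137.1 on SoftY. Those of Ccn4 were 101.6, 90.4, 42.99 and 51.91 CPM in this order. For both genes SoftA, which also carries aged ECM, stood nearer to StiffA than to the substrates with young ECM. Zdhhc2, Tes and Map2 changed by 1.00 ± 0.21, 1.00 ± 0.21 and 0.89 ± 0.20, and lost their calls without StiffA replicate 2 (adjusted p = 0.0553, 0.0679 and 0.0768). Of 31 sterol genes 13 were higher and none lower (median 0.34). Acta2 changed by 0.58 ± 0.10, with 1286, 1250 and 1121 CPM on StiffA and 1031, 1113 and 1319 CPM on SoftA, which overlap, and the change of Col1a1 did not pass the test (0.16 ± 0.05, adjusted p = 0.121).

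**Figure D4:**
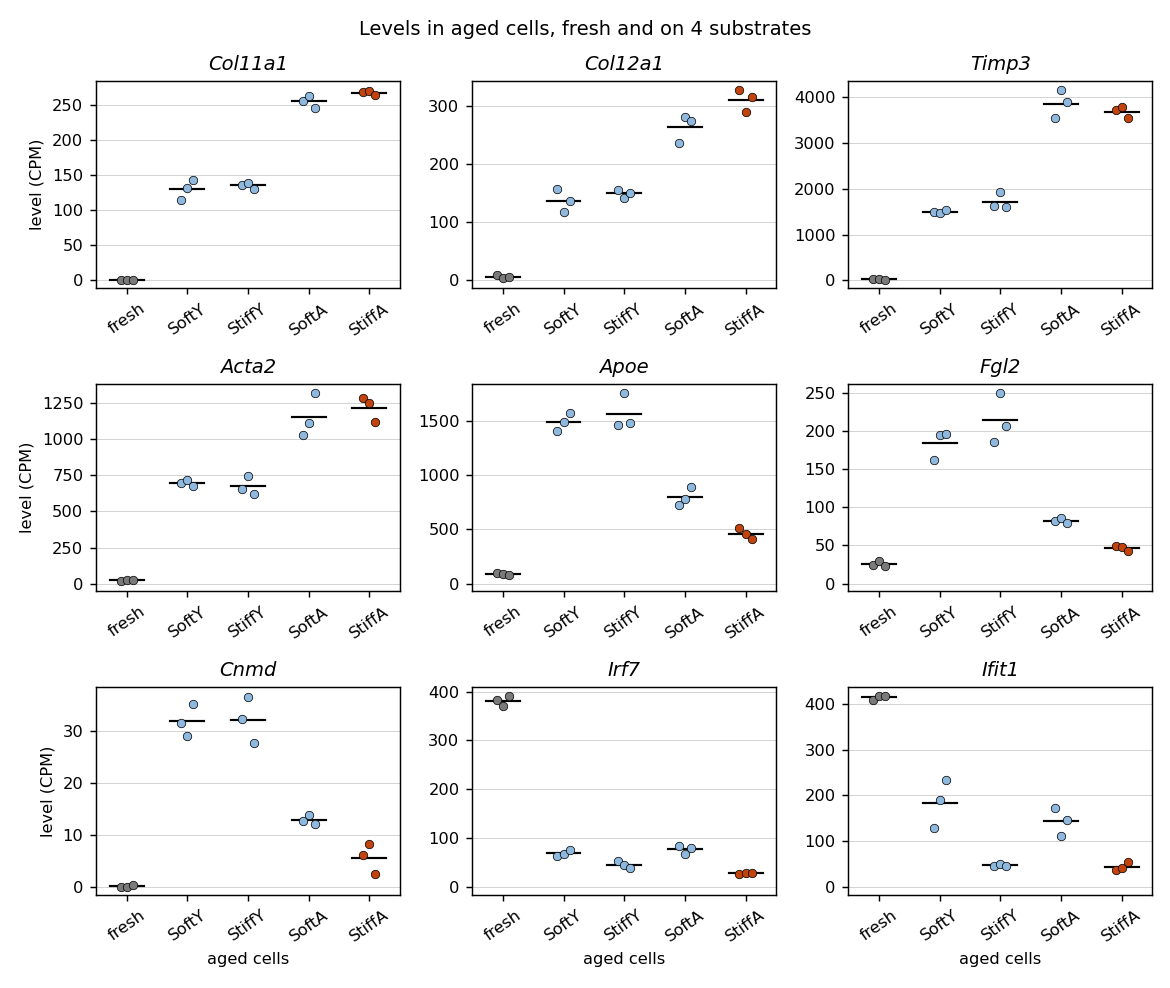
Levels of 9 genes in CPM in each library of fresh aged cells and of aged cells on the 4 substrates, with 1 point per library, bars for the means and a linear axis for each gene. Col11a1, Col12a1, Timp3 and Acta2 lie higher on both substrates with aged ECM, and Apoe, Fgl2 and Cnmd are lowest among cultured cells on StiffA.

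Against the same fresh libraries, aged cells on SoftY, the substrate unlike their own heart in both respects, gave 3711 genes higher and 3727 lower (55.0%), beside 3488 and 3764 on StiffA. The 2 comparisons share the fresh libraries, so the values are given side by side. Col1a1 changed by 5.11 ± 0.08 on SoftY and 5.46 ± 0.08 on StiffA, Acta2 by 4.96 ± 0.16 and 5.76 ± 0.16, Mmp3 by -2.64 ± 0.05 and -3.08 ± 0.05, and Hmgcs1 by 1.98 ± 0.12 and 2.33 ± 0.12. Apoe changed by 4.08 ± 0.10 on SoftY and 2.38 ± 0.10 on StiffA, and Irf7 by -2.48 ± 0.13 and -3.82 ± 0.14. Young cells on StiffA against fresh young cells gave 3175 genes higher and 3364 lower (48.4%).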

How the data were processed

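Per the labels' protocols, a low-input kit served to make RNA-seq libraries of fresh and cultured mouse cardiac fibroblasts. The submitters' processing notes name STAR 2.7.8a and mm39, and the table that the authors deposited holds raw counts, 1 per gene and library. Which annotation release and strand setting were used is not given in the sources used here. Coordinates of genes are of mm39 and those of promoters of GRCm38.p6.

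The fit used edgeR 4.0.16 under R 4.3.3 (TMM, filterByExpr by group, quasi-likelihood F test over all 29 libraries in 10 groups, Benjamini-Hochberg over 13523 genes, calls at an adjusted p under 0.05). SE is the size of the log2 fold change divided by the root of F. Bounds use a floor of 3 counts over a group and intervals are 95% exact intervals, which cover counting error only. Named genes were the 10 largest folds in each direction with a mean of at least 10 CPM and no overlap, up to 5 called members per list, a fixed set, and the 8 largest in each further contrast; other members named were chosen after their values were seen, and a few genes that the rule takes are not reported here. Members and lists were chosen with earlier results of these data known, and lists are described by counts and medians without a test. Replicate numbers were not taken to pair the samples, since the labels state no pairing. Alternatives were DESeq2 1.42.0, other scaling, no filter, a replicate block, fewer libraries and leaving out each library.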

Additional observations from a re-analysis of the deposited data

Results flagged for a closer look

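The interaction of age and culture picked out 54 of the genes named above or fixed for every comparison, 20 with a more positive change from fresh to StiffA in aged than in young cells and 34 with a more negative one. Each was picked because the difference between the ages was itself called in edgeR's quasi-likelihood test, and the values below are that difference (aged minus young, log2).

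12 genes were called in opposite directions in the 2 ages. Genes of cell division rose in aged and fell in young cells: Ankle1 (3.18), Nsl1 (2.96), Kif20a (2.28), Ccnb2 (2.26), Kif11 (2.18), Mki67 (2.09), Bub1b (2.08) and Prc1 (1.98). Nsl1 lost its call in aged cells under several alternatives, among them DESeq2 (adjusted p = 0.0903) and a replicate block in edgeR's test (0.0505). Signal-induced genes fell in aged and rose in young cells: Nr4a1 (-7.68), Egr2 (-5.41), Egr1 (-4.88) and the growth factor gene Ereg (-3.09).

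Among the others with a more positive change in aged cells, matrix and secreted protein genes were Ccn5 (3.75), Spon2 (3.65), Postn (2.44), Col1a1 (2.18) and, from 0 counts in fresh aged cells, Col11a1 (5.80). Kif26b (5.33) and Scel (4.03) also started from 0 counts, so that their size depends on the prior count. The receptor gene Notch3 (3.60), Tcf21 (1.16) and the replication genes Rrm2 (1.03), Mcm2 (1.02) and Mcm6 (0.82) complete them.

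More negative changes in aged cells were found for further immediate early genes, Fos (-3.20), Fosl1 (-2.80), Ier3 (-2.54), Myc (-1.92) and Btg1 (-1.54), and for ERK feedback genes, Phlda1 (-2.90), Dusp6 (-1.61) and Spred1 (-1.37). Inflammatory genes were Ptgs2 (-5.22), Cxcl2 (-4.47), Ccl2 (-1.46) and Il6 (-0.98), and the proteases Mmp13 (-6.14), Mmp10 (-3.68), Mmp12 (-2.97) and Mmp3 (-1.77). NRF2 targets were Slc7a11 (-3.26), Hmox1 (-2.83), Nqo1 (-1.88) and Prdx1 (-1.51). Interferon-stimulated genes were Ifit3 (-1.91), Ifit1 (-1.83), Irf7 (-1.72), Isg15 (-1.63) and Oas1a (-1.45). Plk3 (-5.96), Ano3 (-4.35), the macrophage marker Cd68 (-2.71), Ccn2 (-1.45) and Cdkn1a (-1.40) were more negative as well. The sizes for Plk3, Ano3, Cxcl2, Mmp13, Mmp10, Cd68 and Fosl1 rest on low levels in some groups, and Ano3 rose in both ages. Notch3, Postn, Ccn5 and Ankle1, listed above, had low levels in fresh aged cells.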

How the results depend on the processing

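No called result reversed its direction under any alternative tried. For StiffA over fresh aged cells, leaving out 1 library gave 3111 to 3431 genes higher and 3192 to 3467 lower, DESeq2 gave 3355 and 3351, and calls past 2-fold were 1964 and 1938. The interaction moved with the scaling, to 1706 and 578 genes with library totals alone, and by leaving out 1 library to 768 to 949 and 737 to 928. StiffA over the other substrates gave 331 genes lower without the filter on low counts, and leaving out 1 library gave 71 to 204 higher and 110 to 213 lower. The cause of these shifts was not tested.

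Same-numbered fresh and StiffA libraries correlated at 0.026, 0.12 and 0.214 in their deviations over 9358 genes, and differently numbered ones at -0.17 to 0.091. The labels state no pairing and these values do not settle it, so that the main fit had no block. With a replicate block the counts were 3552 and 3933, 1016 and 1178, and 252 and 293 for the 3 contrasts in this order.

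Of 3188 values of named genes for StiffA over fresh cells under the alternatives, 3154 stayed on their side of the threshold and 34 lost their call, those of Ddit4, Egfl7, Fabp4, Gata6, H2-Ab1, Higd1a, Lmnb1, Nsl1, Sned1, Sprr2h and Sun1. For the interaction 11 of 576 such values lost their call, and for StiffA over the other substrates 15 of 609 did and 4 gained one. Of 1032 counts of called members of a gene list 32 moved by more than 1.5 times, all but 1 of them counts of 5 genes or fewer. Genes near 10 CPM rest on 21.1 to 27.9 counts a library, which limits what can be seen of weaker genes.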

Other observations

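Gene groups that the text above leaves out changed less uniformly. Of all genes tested 25.8% rose and 27.8% fell, and several of these groups had shares near these. Of 24 lysosome and autophagy genes 12 fell and 6 rose (median -0.34). The cathepsin genes Ctsb and Ctsz fell (-1.07 ± 0.06, adjusted p = 2.42e-16, and -1.09 ± 0.07, adjusted p = 8.88e-14) and Ctsd rose (0.99 ± 0.08, adjusted p = 5.61e-12). Npc2, which exports cholesterol from lysosomes, and the proton pump subunit gene Atp6v0d1 changed by -1.07 ± 0.11 and -0.92 ± 0.10. Macrophages also express cathepsins, and their summed markers were 473.7 to 522.2 CPM fresh and 27.12 to 38.05 CPM on StiffA, whose part was not tested.

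Of 16 heat shock genes 6 rose and 5 fell (68.8% called, beside 53.6% of all genes tested). Cryab, a small heat shock protein of muscle, measured 148, 180.2 and 152 CPM in the fresh libraries and 955, 857 and 835 CPM on StiffA (2.46 ± 0.09, adjusted p = 4.04e-20), while the chaperonin genes Hspd1 and Hspe1, Hsp90ab1 and Hspa8 fell (-1.52 ± 0.11, -1.66 ± 0.18, -0.93 ± 0.07 and -0.85 ± 0.10). Of 20 unfolded protein response genes 8 fell and 3 rose, and the share called (55%) was near that of all genes. The endoplasmic reticulum chaperone Hspa5 measured 5234, 5319 and 4887 CPM in the fresh libraries and 3243, 3287 and 3152 CPM on StiffA (-0.67 ± 0.06, adjusted p = 1.59e-10), Creld2, Sdf2l1 and Manf changed by -1.20 ± 0.12, -1.12 ± 0.15 and -0.64 ± 0.08, and Herpud1 rose (1.10 ± 0.11, adjusted p = 7.06e-10). Of 18 genes of ATF4 and amino acid supply 6 fell and 4 rose, and the share called (55.6%) was again near that of all genes. Pycr1 and Aldh18a1, which make proline, an amino acid abundant in collagen, rose (2.38 ± 0.19 and 0.86 ± 0.10), and Shmt2 and the transporter subunit Slc3a2 fell (-1.19 ± 0.11 and -2.27 ± 0.11).

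Of 31 nuclear respiratory chain genes 19 fell, 11 without StiffA replicate 3, and 2 rose (median -0.36), with Cyc1 at -0.93 ± 0.10 and Sdha, a complex II subunit, at 0.51 ± 0.07. Of 11 genes of the mitochondrial genome 4 fell and 1 rose, with mt-Nd1 at -0.84 ± 0.13 and mt-Cytb at 0.33 ± 0.07. Of 13 nuclear lamina genes 4 fell, 2 without StiffA replicate 1, and 2 rose (46.2% called, beside 53.6% of all genes tested). Banf1 fell, with 213, 218 and 184 CPM in the fresh libraries and 98.7, 105 and 103 CPM on StiffA, Lbr changed by -0.61 ± 0.13, and Lmnb1 (-0.99 ± 0.35) lost its call without StiffA replicate 1 or 2 (adjusted p = 0.102 and 0.145). In the hypoxia group 4 of 12 fell, 2 without StiffA replicate 1 or 2, and none rose, with Egln3 at -2.69 ± 0.28 and Hif1a at -0.71 ± 0.13.

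Of 12 endothelial markers 5 fell, 2 without StiffA replicate 3, and 1 rose, with Cdh5 at -0.95 ± 0.18 and Eng at 0.26 ± 0.08. Neutrophil markers summed to 9.955 to 12.9 CPM fresh and 0.7179 to 1.808 CPM on StiffA. Most of the fresh sum was S100a8 (72 counts fresh and 0 on StiffA). Csf3r had 9 counts fresh and 0 on StiffA, Il1r2 had 3 and 9, and S100a9, Retnlg and Ly6g were at 0 in both groups. The Schwann cell marker Cdh19 rose (1.93 ± 0.26, adjusted p = 2.46e-07).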
